A study of Rattus norvegicus with 6 samples.

Results

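The livers of 6 male rats were examined for 40 genes that mark the non-parenchymal cells of the organ, taken from the 14217 genes that the array annotation named. The set was made up of 13 macrophage markers, 14 markers of stellate cells and matrix, and 13 endothelial markers. Members were taken by gene symbol, as every probe set annotated to 1 of these genes alone. All animals were BrlHan:WIST@Jcl(GALAS) males, 7 weeks old when the liver was taken; they had arrived aged 4 weeks and spent 1 week in quarantine. In the control group 3 animals ate a powdered diet with no added compound for 2 weeks, and in the other group 3 animals received the pyrethroid insecticide epsilon-momfluorothrin in the diet over the same time. The dietary concentration is given as 3000 ppm in the sample titles and the treatment protocol and as 5000 ppm in the other labels, so the treated group is named by the compound alone. Each animal's liver RNA was hybridised to 1 Affymetrix rat array.

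A liver lobule holds few cell types besides the hepatocyte. Kupffer cells are the resident macrophages of the sinusoid: they take up particles, bacterial products and worn blood cells and secrete the complement component C1q. Stellate cells lie between hepatocyte and endothelium, store vitamin A as retinyl esters when quiescent, and make collagen and smooth muscle actin once activated. Sinusoidal endothelial cells carry scavenger and Fc receptors and an open, fenestrated wall, whereas the endothelium of the larger vessels carries more of the classical vascular markers. In whole liver RNA fewer cells of a type and less RNA per cell cannot be told apart.

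The deposited values are linear probe set signals, scaled to nearly the same trimmed mean on every array. The array medians, 27.0 to 29.4 in control and 23.1 to 26.5 in treated animals, differed at an exact permutation p of 0.1 (2-sided), the smallest that 3 animals against 3 allow. A probe set was tested where 3 or more of the 6 arrays had it above their own median, and was called dim in a group where it did so on none. Hepatocyte markers were bright: all 12 hepatocyte markers with a probe set of their own were tested, and their summed signal was 83086 to 91721 in control and 75879 to 83170 in treated animals, with 10 of the 12 log2 differences below 0, beside 4828 of 9200 over all tested genes. None of the 12 passed the test, and Asgr1 and Tat lay above 0. What part the hepatocyte signals had in the values below was not tested.

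No macrophage, stellate or endothelial marker passed the threshold. Of the 40 genes, 36 had at least 1 probe set of their own and 35 were bright enough to be tested. They were read by 48 probe sets, of which 41 were tested; the fainter ones left out belonged to Aif1, Kdr, Pdgfrb, Flt1 and Des. Marco, Vsig4, Cdh5 and Clec4g had no probe set in the annotation and were not analysed here. The stellate marker Des had a probe set that was dim in control livers and too faint to be tested. The test was limma on log2 signals, with Benjamini-Hochberg adjustment over all 15778 tested probe sets. At an adjusted p under 0.05 it called 0 of the 35 markers, against 20 of all 9200 tested genes (0.217%) and 27 of all tested probe sets (0.171%). At an unadjusted p under 0.05 it picked 4 markers, Cd14 and Lyve1 with higher and Clec4f and Eng with lower treated signals, against a share of 12.2% among all tested genes. The treated and control signals did not overlap for 3 of the 35 markers (8.57%), namely Cd14, Lyve1 and Eng, against 18.3% of all tested genes.

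The medians of the 3 marker groups lay close to that of all tested genes. The median log2 difference, treated minus control, was -0.03 for 11 macrophage genes, 0.00 for 13 stellate and matrix genes and 0.00 for 11 endothelial genes, beside -0.01 for all tested genes. Each group held members on both sides of 0: 4 above and 7 below among macrophage, 7 above and 6 below among stellate and matrix, and 5 above and 6 below among endothelial genes. The 95% intervals of 31 of the 35 differences lay wholly within a 2-fold change in either direction, beside 8291 of all 9200 tested genes. The exceptions were Cd14, Flt1, Timp1 and Lum, whose intervals reached beyond 2-fold. For 21 markers the interval lay within 1.5-fold, beside 5847 of all 9200 tested genes.

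**Figure D1:**
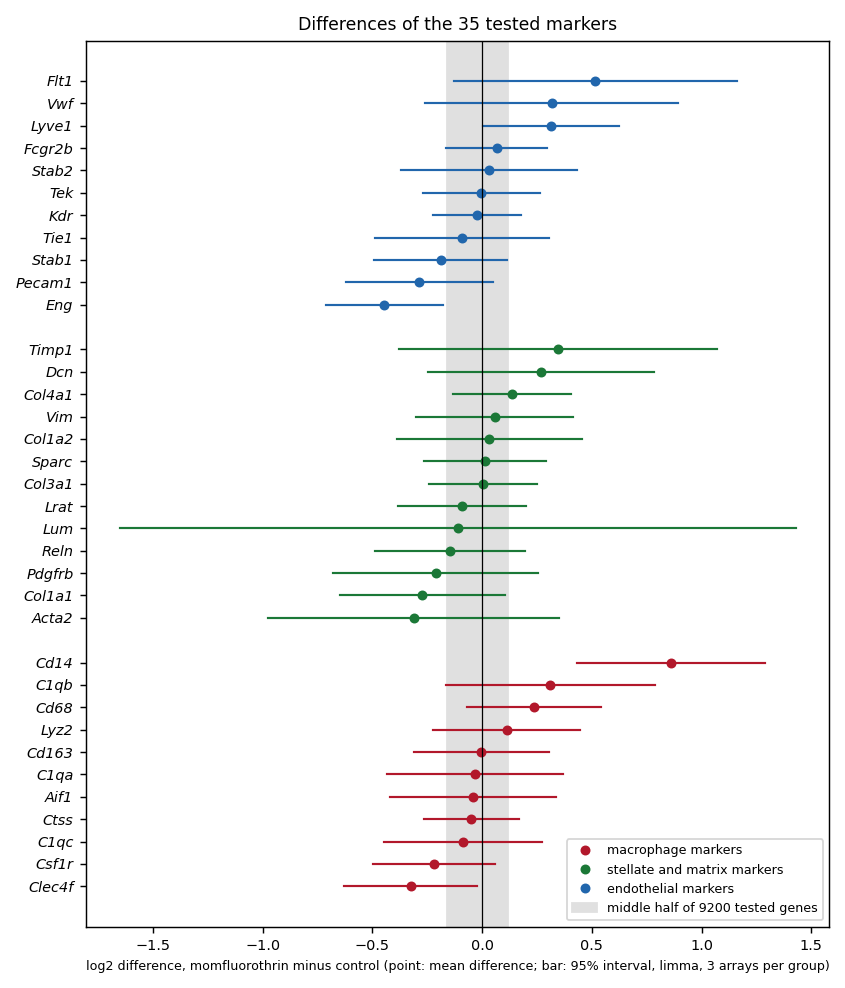
Log2 difference of each of the 35 tested markers, momfluorothrin minus control, with the 95% interval of the limma fit (3 arrays per group). The grey band runs from the lower to the upper quartile of all 9200 tested genes, -0.16 to 0.12; Cd14, at 0.86, lies farthest from 0, and Lum has the widest interval.

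Among the macrophage markers, the Kupffer cell lectin Clec4f, a receptor for galactose-type sugars, had signals of 516, 430 and 554 in the control animals, and of 413, 339 and 447 in the treated ones (here and throughout in the order of replicates 1, 2 and 3). The groups overlapped by a narrow margin, since treated replicate 3 exceeded control replicate 2. The log2 difference was -0.33 ± 0.13 (SE, n = 3 per group), with an adjusted p of 0.419 in limma. Csf1r, the receptor through which macrophages receive their survival signal, gave 199, 165 and 205 in control and 161, 174 and 151 in treated animals. Only control replicate 2 lay inside the treated range, and the difference was -0.22 ± 0.12 (adjusted p = 0.525 in limma). Cd163, the scavenger receptor for haptoglobin-hemoglobin complexes, gave 73.3, 88.6 and 79.8 against 87.4, 78.7 and 74.6. Its groups overlapped almost fully, with a difference of 0.00 ± 0.14 and a 95% interval of -0.31 to 0.30.

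Lysosomal and general myeloid markers gave differences of either sign. Cd68, a lysosomal glycoprotein of phagocytes, gave 126, 105 and 137 in control and 155, 146 and 131 in treated animals. Treated replicates 1 and 2 were above every control, and treated replicate 3 was below control replicate 3, for a difference of 0.24 ± 0.14 (adjusted p = 0.538 in limma). Lyz2, the lysozyme of myeloid cells, gave 458, 370 and 469 against 381, 485 and 542, with overlapping groups and a difference of 0.11 ± 0.15. Ctss, a cysteine protease of antigen-presenting cells, had the narrowest interval of this group. It gave 425, 411 and 448 against 453, 388 and 403, a difference of -0.05 ± 0.10 (SE) with a 95% interval of -0.26 to 0.17. Aif1, a calcium-binding protein of macrophages, differed by -0.04 ± 0.17 in its tested probe set, and its second probe set was too faint to be tested.

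The 3 chains of C1q, which assemble into 1 complement protein, did not shift in 1 direction. C1qa gave 548, 356 and 456 in control and 526, 366 and 434 in treated animals, a difference of -0.03 ± 0.18. C1qb gave 280, 170 and 155 against 272, 240 and 217, a difference of 0.31 ± 0.21 (adjusted p = 0.598 in limma). C1qc gave 254, 180 and 211 against 192, 176 and 238, a difference of -0.09 ± 0.16. All 3 had their highest control signal in control replicate 1, which was also the highest of all 6 arrays, and the groups overlapped for each chain.

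Cd14, the co-receptor that hands bacterial lipopolysaccharide to its signalling receptor and that hepatocytes can make as well as macrophages, had the largest difference of the 35 markers. Its signals were 1277, 951 and 731 in control and 1548, 1678 and 2046 in treated animals, so every treated array lay above every control array. The log2 difference was 0.86 ± 0.19 (SE, n = 3 per group), or 1.82-fold, with a 95% interval of 0.43 to 1.29. It did not pass the threshold (unadjusted p = 0.00141, adjusted p = 0.159 in limma), and over all other settings the adjusted p ran from 0.0761 to 0.41. Cd14 was the only macrophage marker that separated the groups (9.09% of the tested macrophage markers, beside 18.3% of all tested genes). The next highest difference, that of C1qb, came with overlapping arrays. Lbp, the plasma protein that presents lipopolysaccharide to Cd14, gave 1129, 804 and 829 in control and 833, 770 and 1386 in treated animals, a difference of 0.08 ± 0.22 with overlapping groups.

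Cd14 also carried the summed signal of the macrophage markers. With it, the sum over 11 genes was 3293 to 4244 in control and 4144 to 4770 in treated animals. With Cd14 left out, an alternative chosen after the data were seen, the sum over the other 10 was 2342 to 2967 in control and 2465 to 2724 in treated animals, so the treated range lay inside the control range. The median difference was -0.04 without Cd14.

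The treated and control signals overlapped for each of the 13 tested stellate cell and matrix markers, beside 18.3% of all tested genes without overlap. Among markers of the quiescent cell, Lrat, the enzyme that esterifies retinol for storage, gave 114, 114 and 144 in control and 113, 116 and 117 in treated animals. All arrays but control replicate 3 lay close together, and the difference was -0.09 ± 0.13 (adjusted p = 0.817 in limma). Reln, a secreted glycoprotein of stellate cells, was measured by 2 tested probe sets with differences of -0.15 ± 0.15 and -0.17 ± 0.17. Des, the intermediate filament of muscle and stellate cells, gave 21.0, 28.0 and 25.9 against 25.1, 27.1 and 24.6, near or under the array medians, and no fold is given.

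Markers of activated stellate cells were low or mixed. Acta2, the smooth muscle actin of activated stellate cells and vessel walls, had 1 probe set of its own (5 more, annotated to Acta2 and Actc1 together, were not used). It gave 31.2, 68.5 and 47.6 in control and 41.8, 41.4 and 30.7 in treated animals. The groups overlapped, and the difference was -0.31 ± 0.29 (adjusted p = 0.712 in limma). Timp1, an inhibitor of matrix metalloproteases, gave 26.4, 58.6 and 43.1 against 72.1, 41.4 and 45.9, a difference of 0.35 ± 0.32 whose 95% interval ran from -0.38 to 1.07. Pdgfrb, the platelet-derived growth factor receptor of these cells, differed by -0.21 ± 0.21 in the 1 of its 3 probe sets that was tested. Vim, the intermediate filament of mesenchymal cells, differed by 0.06 ± 0.16.

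The groups overlapped in every tested collagen probe set, beside 18.3% of all tested genes without overlap. Col3a1 gave 1667, 1327 and 1728 in control and 1563, 1487 and 1654 in treated animals. The treated range lay wholly inside the control range, and the difference was 0.00 ± 0.11 with a 95% interval of -0.24 to 0.25. Col1a1, a chain of type I collagen, gave 86.0, 91.6 and 110 against 94.4, 78.2 and 66.6 in its brighter probe set, a difference of -0.27 ± 0.17 (adjusted p = 0.566 in limma), and its second tested probe set gave -0.26 ± 0.20. Col1a2, the other chain of that collagen, differed by 0.03 ± 0.19 and 0.02 ± 0.13 in its 2 tested probe sets. The paired chains of 1 protein thus had differences on either side of 0, each smaller than 2 standard errors. Col4a1, a basement membrane collagen, gave 159, 163 and 196 against 198, 175 and 195, a difference of 0.14 ± 0.12, and 0.21 ± 0.13 in its second probe set.

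The proteoglycan genes Dcn and Lum varied between animals. Dcn, decorin, gave 106, 125 and 198 in control and 200, 163 and 140 in treated animals, a difference of 0.27 ± 0.23. Lum, lumican, gave 28.1, 111 and 93.2 against 144, 69.4 and 22.9, a spread of 3.94-fold within control and 6.3-fold within treated animals. Its difference of -0.11 ± 0.68 had a 95% interval of -1.65 to 1.43, which reached beyond 2-fold in either direction. Sparc, a collagen-binding glycoprotein, gave 476, 412 and 492 against 518, 397 and 484 in its brighter probe set, a difference of 0.01 ± 0.12. Its other probe set gave 0.30 ± 0.16, so the 2 probe sets of this gene differed in size of change, and the groups overlapped in both.

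**Figure D2:**
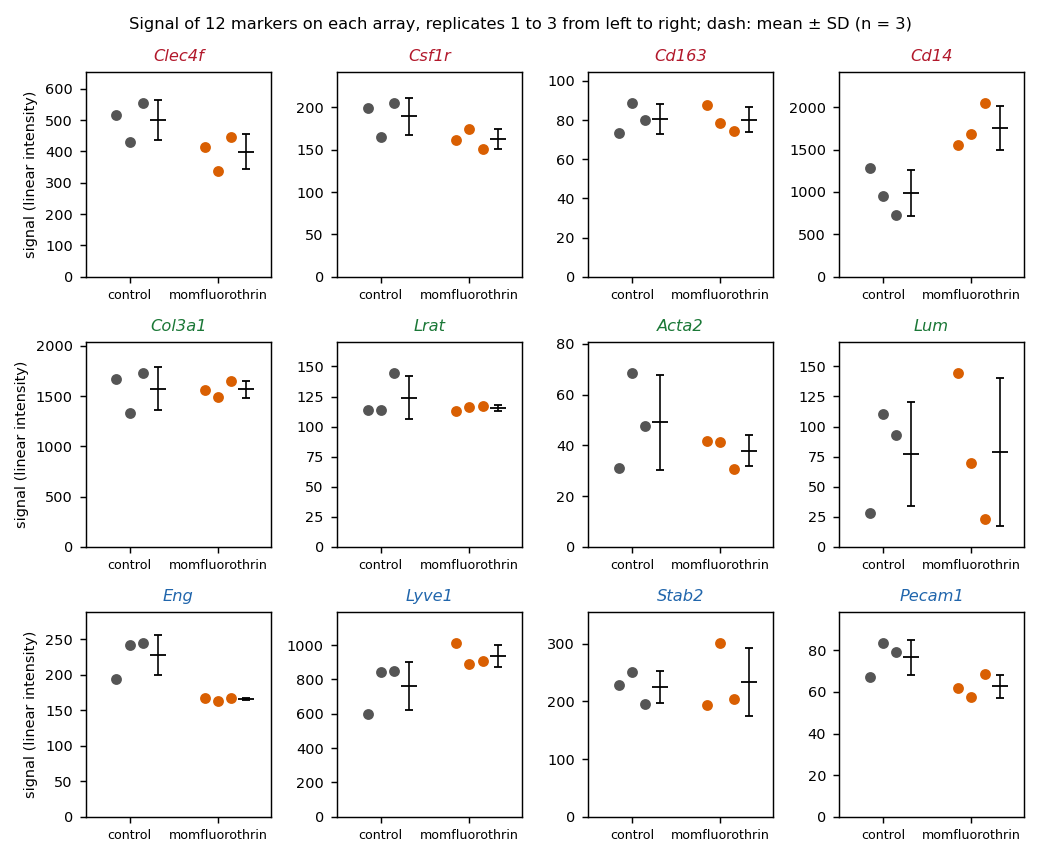
Signal (linear intensity, axes from 0) of 12 markers on each of the 6 arrays, with mean ± SD (n = 3) beside the points; titles in red, green and blue mark macrophage, stellate and matrix, and endothelial genes. Treated arrays lie above all controls for Cd14 and Lyve1 and below them for Eng, and overlap with control arrays in the other 9 panels.

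In 2 of the 11 tested endothelial markers (18.2%) the groups did not overlap, beside 18.3% of all tested genes: Eng was lower and Lyve1 higher on every treated array. Eng, endoglin, a co-receptor for ligands of the transforming growth factor family, gave 195, 243 and 245 in control and 168, 164 and 167 in treated animals. Every treated array was below every control, and the treated arrays spread by 1.02-fold only. The log2 difference was -0.45 ± 0.12 (SE, n = 3 per group), with means of 227 ± 28.2 in control and 166 ± 1.99 in treated livers (SD), and did not pass the threshold (unadjusted p = 0.00439, adjusted p = 0.222 in limma). Over all other settings its adjusted p was 0.172 to 0.488.

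Lyve1, a hyaluronan receptor of sinusoidal and lymphatic endothelium, gave 599, 841 and 846 in control and 1012, 893 and 909 in treated animals. The difference was 0.31 ± 0.14 (unadjusted p = 0.0481, adjusted p = 0.429 in limma). A second Lyve1 probe set gave 299, 340 and 359 against 474, 391 and 407, a difference of 0.35 ± 0.11 (adjusted p = 0.306 in limma). In both probe sets every treated array was above every control array, and control replicate 1 was the lowest. Without that array the difference of the brighter probe set was 0.15.

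The scavenger and Fc receptors of the sinusoidal wall had overlapping groups. Stab2, a receptor that clears hyaluronan and other ligands from blood, gave 228, 250 and 195 in control and 194, 301 and 203 in treated animals, a difference of 0.03 ± 0.18. Stab1, its relative, gave 89.8, 110 and 97.8 against 85.3, 95.4 and 80.4, a difference of -0.19 ± 0.13. Fcgr2b, the inhibitory Fc receptor that removes immune complexes, gave 506, 578 and 563 against 624, 517 and 586, a difference of 0.07 ± 0.10.

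Of the growth factor receptors of endothelium, Kdr, the main signalling receptor for Vegfa, had the smallest error of all 35 markers. It gave 672, 611 and 664 in control and 680, 599 and 638 in treated animals, a difference of -0.02 ± 0.09 with a 95% interval of -0.22 to 0.18. Flt1, the other receptor for Vegfa, gave 23.4, 30.6 and 36.9 against 30.4, 55.5 and 45.9 in the 1 of its 3 probe sets that was tested. Treated replicate 1 lay inside the control range, and the difference of 0.52 ± 0.28 did not pass (adjusted p = 0.523 in limma). Control replicate 1 was under its array median. The other Flt1 probe sets were too faint to be tested and had overlapping groups. The brighter of them gave 25.7, 23.3 and 26.0 in control and 25.9, 22.0 and 27.3 in treated animals. Tek, the angiopoietin receptor, differed by 0.00 ± 0.12, and its relative Tie1 by -0.09 ± 0.17. Among general vascular markers, Pecam1, an adhesion molecule of endothelial junctions, gave 67.0, 83.5 and 79.4 against 62.1, 57.5 and 68.5. Treated replicate 3 was above control replicate 1, and the difference was -0.29 ± 0.15 (adjusted p = 0.496 in limma). Vwf, the clotting protein stored by vessel endothelium, gave 34.8, 40.8 and 23.2 against 41.6, 35.2 and 43.5, close to the array medians, a difference of 0.32 ± 0.25.

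The median level of each marker group varied between single arrays. For each array the median was taken over the genes' log2 deviations from their own control means. Macrophage markers stood at -0.20 in control replicate 2, where 1 of 11 genes was above its control mean, and at 0.09 and 0.03 in control replicates 1 and 3. In the treated livers they stood at 0.08, -0.06 and 0.10. Stellate and matrix markers stood at 0.19 in control replicate 3, where 12 of 13 genes were above their control means, and at -0.11 and -0.08 in the other controls. The treated livers gave 0.02, -0.08 and -0.01. Endothelial markers stood at -0.12, 0.11 and 0.03 in control and 0.06, -0.02 and -0.13 in treated animals. For all 9200 tested genes the same measure lay between -0.01 and 0.01 on every array. A median over so many genes, on arrays scaled alike, does not show how far a median over 11 or 13 genes varies. Whether these array levels exceed that variation was not tested. The treated range was inside the control range for stellate and matrix markers, and passed it slightly at 1 end for macrophage and endothelial markers. For macrophage and for stellate and matrix markers the array farthest from 0 was a control array.

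**Figure D3:**
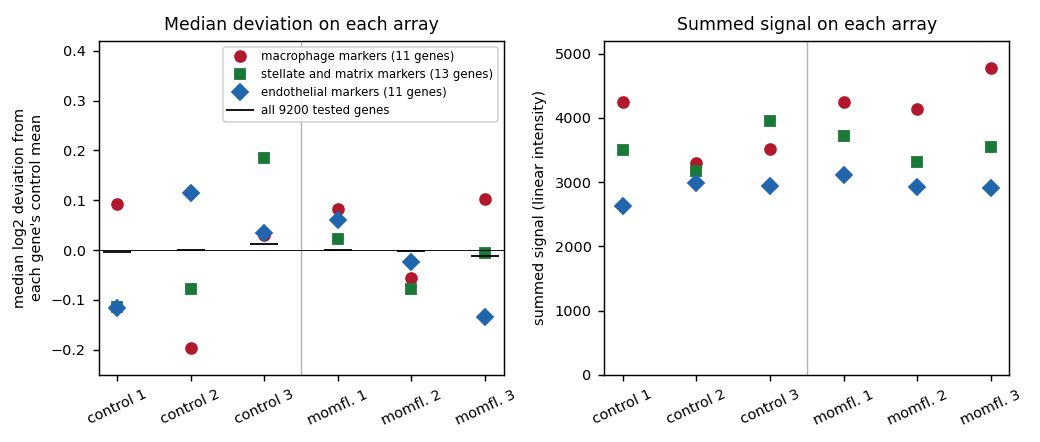
Left, median log2 deviation of each marker group from the genes' control means on each array, with all tested genes as black dashes; right, the summed linear signal of the same genes. Control replicate 2 is low for macrophage markers (-0.20) and control replicate 3 high for stellate and matrix markers (0.19), and the higher macrophage sums of treated livers (4144 to 4770) include Cd14.

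Further genes listed for the same cell types were read for the same comparison. How far other liver cells, hepatocytes among them, gave their signals was not tested. Again none passed the threshold, beside 0.217% of all tested genes. Of 37 further myeloid genes 26 were tested, with a median difference of -0.01, 12 above and 14 below 0. The 2 with the smallest p were Axl, a receptor tyrosine kinase for apoptotic cells, which gave 179, 135 and 177 in control and 129, 124 and 130 in treated animals (-0.34 ± 0.13, adjusted p = 0.389 in limma), and Irf8, a transcription factor of monocytes (-0.37 ± 0.17, adjusted p = 0.443 in limma). The cytokine genes Tnf and Il10 were dim on all 6 arrays, and Il1b was above the array median on 2. Adgre1, the F4/80 antigen, differed by -0.15 ± 0.17 and Cd5l, a secreted Kupffer cell protein, by 0.22 ± 0.18; both were chosen after their values were seen.

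Of 35 further stellate and matrix genes 27 were tested, with a median of 0.04, 14 above and 13 below 0. Ecm1, a matrix protein, differed by -0.28 ± 0.12 and Mgp, an inhibitor of matrix calcification, by 0.41 ± 0.18 (adjusted p = 0.429 and 0.442 in limma), both with overlapping groups. Col6a3 was higher and Pdgfra lower on every treated array. They were the only genes of this list without overlap (7.41%, beside 18.3% of all tested genes). Another Col6a3 probe set, too faint to be tested, was lower on every treated array.

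Of 35 further endothelial genes 26 were tested, with a median of 0.02, 16 above and 10 below 0. Calcrl, the receptor for adrenomedullin and related peptides, gave 67.7, 55.7 and 59.7 in control and 43.1, 38.2 and 30.0 in treated animals, a difference of -0.73 ± 0.19 (unadjusted p = 0.00442, adjusted p = 0.222 in limma). Its second tested probe set gave -0.16 ± 0.22 with overlapping groups. Plvap, a protein of endothelial diaphragms, gave 9.47, 32.4 and 12.2 against 55.8, 38.4 and 35.4, so 2 of the 3 control arrays were under their array medians. It met the signal filter through the treated arrays and 1 control, so no difference is given. The groups did not overlap for the brighter Calcrl probe set, as in 4 of the 26 genes of this list (15.4%), beside 18.3% of all tested genes. Plvap, kept by the filter as just stated, is counted among these 4 and among the 16 above 0.

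Of 16 ligands of the marker receptors only 7 were bright enough to be tested, with a median of -0.13 and 1 above 0, beside 4372 of 9200 over all tested genes. Csf1, the ligand of Csf1r, gave 280, 340 and 337 in control and 271, 289 and 227 in treated animals, a difference of -0.28 ± 0.13 (adjusted p = 0.434 in limma). Tgfb2, a transforming growth factor, gave 27.7, 35.2 and 34.4 against 26.4, 20.6 and 19.5. It met the signal filter through the control arrays and 1 treated array, so no difference is given. Tgfb2 is nevertheless counted in the median and among the genes below 0. Vegfa, the ligand of Kdr and Flt1, gave 705, 714 and 665 against 681, 688 and 587, a difference of -0.09 ± 0.09, and -0.35 ± 0.16 in its second tested probe set. The angiopoietins Angpt1 and Angpt2, ligands of Tek, were dim on all 6 arrays.

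Markers of the other cell types listed, red blood cells apart, were mostly too faint to be tested. Of 9 neutrophil genes none was tested, and S100a8, Csf3r, Cxcr2 and Camp were dim on all 6 arrays. Of 15 lymphocyte genes 3 were tested, and the T cell receptor subunits Cd3e, Cd3d and Cd3g were dim on all 6 arrays. The kinase Lck gave 42.6, 43.3 and 50.5 in control and 24.4, 36.6 and 28.1 in treated animals (-0.63 ± 0.22, adjusted p = 0.344 in limma), and Il2rb, an interleukin receptor chain, differed by -0.44 ± 0.21 (adjusted p = 0.472 in limma). The third, Prf1, the pore-forming protein of killer cells, gave 34.8, 26.8 and 17.7 against 30.5, 29.7 and 36.1, with overlapping groups. It met the signal filter through the treated arrays and 1 control, so no difference is given. The summed signal of the 3 tested lymphocyte genes was 110 to 125 in control and 81.0 to 101 in treated animals. That sum covers only 3 of the 15 listed genes and includes Prf1. The groups did not overlap for 2 of the 3, beside 18.3% of all tested genes. Of 10 bile duct genes only Epcam, an epithelial adhesion protein, was tested. It gave 67.1, 83.1 and 95.1 against 138, 107 and 134, with no overlap (0.63 ± 0.16, adjusted p = 0.22 in limma). Red blood cell genes (4 of 7 tested, median -0.11) summed to 4474 to 4746 in control and 3891 to 5771 in treated animals, and of 6 smooth muscle and mesothelial genes only Myh11, a smooth muscle myosin, was tested (0.19 ± 0.18). Any part these other cells had in the marker values was not tested.

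**Figure D4:**
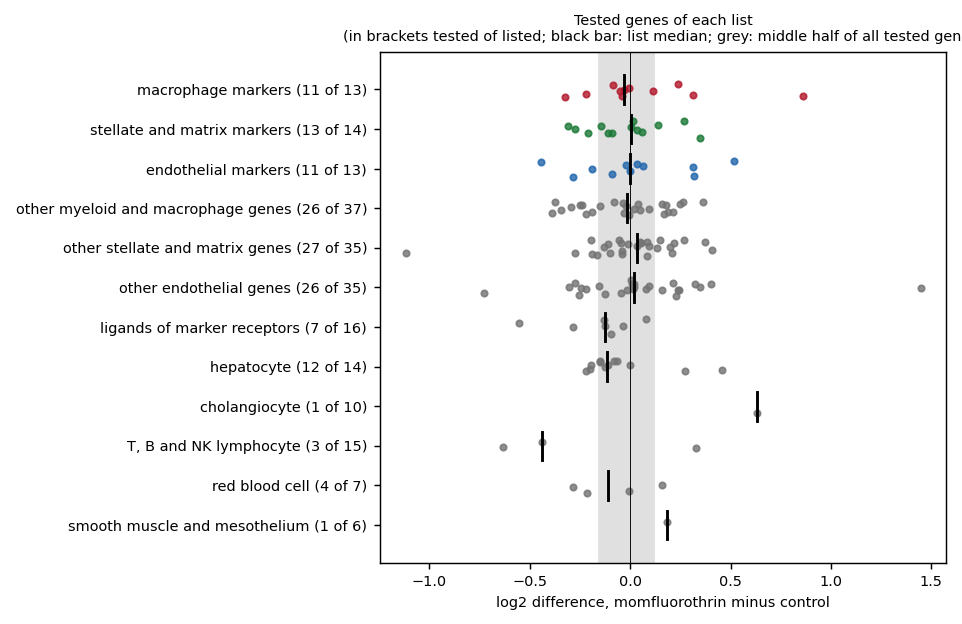
Log2 difference, momfluorothrin minus control, of every tested gene (points) in each list, with the number tested of the number listed. The medians (black bars) of the 3 marker groups and of the further myeloid, stellate and endothelial genes lie between -0.03 and 0.04, inside the grey band from the lower to the upper quartile of all 9200 tested genes.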

How the data were processed

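The authors deposited 1 linear intensity (signal) per probe set and array, and the submitters' processing notes name MAS5 as the software, release and parameters not given in the sources used here. No count of reads underlies these values, and the number of arrays limits their precision. Of 31099 probe sets, 57 Affymetrix controls were left out. Gene names came from GEO's platform annotation: 20826 probe sets had 1 symbol, 436 several and 9780 none, and 20758 of those with 1 symbol matched a rat gene table of assembly GRCr8, used for names only. Kept probe sets exceeded the median of the array on 3 or more of 6 arrays.

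Log2 signals, with no pseudocount, entered a linear model in limma 3.58.1 under R 4.3.3 (lmFit, eBayes with an intensity trend, 2-sided, Benjamini-Hochberg over all 15778 kept probe sets, threshold 0.05). The fit was tested on simulated data. Each gene is represented by the brightest of its kept probe sets. Values are per animal, means ± SD, or log2 differences ± SE. Replicates are separate animals per the labels; no array batch is given.

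The members and lists were chosen with earlier results of these data known. Per group, the 4 tested genes with the smallest p, the 2 brightest and preset markers were given on every array; per further list, the 2 with the smallest p. Alternatives changed filter, scaling, pseudocount (16), variance model, array weights, probe set rule, replicate block and arrays used.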

Additional observations from a re-analysis of the deposited data

How the results depend on the processing

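None of the 35 tested markers passed the adjusted threshold under any of the 15 planned settings, where the lowest adjusted p of any marker was 0.0761 (Cd14, without control replicate 1). The filter at the 70th percentile left 27 markers to test. The number of probe sets called over the whole array did move, from 27 to 70 with median centring, to 3 without an intensity trend, to 15 with a replicate block and to between 5 and 27 with 1 array left out; it was 15, 5 and 7 without momfluorothrin replicates 1, 2 and 3. Deviations of animals with equal replicate numbers correlated at -0.10, 0.10 and -0.06, beside -0.068 to 0.145 for unequal numbers. With 3 animals per group these values cannot show whether the animals were paired in handling. The replicate block called none of the markers.

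Median centring raised the median of all tested genes from -0.01 to 0.16, and with it the group medians to 0.14 (macrophage), 0.18 (stellate and matrix) and 0.17 (endothelial). Since it adds the same offset to every gene, differences near 0 became positive: Cd163 to 0.17, C1qa to 0.14, C1qc to 0.087, Aif1 to 0.13, Ctss to 0.12, Lum to 0.063, Reln to 0.027, Lrat to 0.083, Kdr to 0.15, Tek to 0.17 and Tie1 to 0.082. Quantile normalization turned Cd163 to 0.051, Aif1 to 0.011, Col3a1 to -0.049, Sparc to -0.037 and Tek to 0.017, and array weights turned Tek to 0.0025. With 1 array left out the sign also turned for Aif1 (-0.16 to 0.068), C1qa (-0.19 to 0.12), C1qc (-0.21 to 0.041), Cd163 (-0.070 to 0.066), Col1a2 (-0.091 to 0.23), Col3a1 (-0.12 to 0.075), Kdr (-0.068 to 0.023), Lrat (-0.15 to 0.024), Lum (-0.73 to 0.60), Lyz2 (-8.5e-05 to 0.25), Sparc (-0.065 to 0.13), Stab2 (-0.17 to 0.15), Tek (-0.064 to 0.083), Tie1 (-0.22 to 0.018) and Vim (-0.10 to 0.19). All these differences were uncalled, and the cause of the turns under quantile normalization, array weights and left-out arrays was not tested. The other 18 markers, among them Cd14, Clec4f, Csf1r, Eng, Lyve1 and Pecam1, kept their direction in every setting that tested them.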

Other observations

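Ramp2, the accessory protein of the receptor Calcrl, was picked after its values were seen. It gave 52.2, 65.7 and 76.8 in control and 81.3, 77.9 and 85.4 in treated animals. The log2 difference was 0.35 ± 0.17 and did not pass the threshold (adjusted p = 0.467 in limma).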
